A study of Mus musculus with 4 samples.

Results

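The Adgre genes encode the EGF-domain adhesion G protein-coupled receptors of leukocytes, and *Adgre1* (F4/80), *Adgre4* (FIRE) and *Adgre5* (CD97) were compared here between Trem-2-/- and WT alveolar macrophages (AM). They were chosen by symbol, and 3 of the 19946 genes measured belong to this subfamily. Each was represented by 1 probe set, so no measured value was needed to pick between probe sets. The symbols themselves were proposed with results of these arrays known. The p-values below, adjusted over all genes, do not account for that choice.

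AM were recovered by bronchoalveolar lavage from untreated mice of 8 to 10 weeks. The Trem-2-/- group (TREM2-/- in the labels) lacked *Trem2*, a lipid-sensing receptor gene of myeloid cells, in the whole animal and had been backcrossed to C57/Blk6, and the WT group was C57/Blk6 from a commercial breeder. Both genotypes were bred in the same facility. RNA of pooled mice was hybridised to Affymetrix mouse gene arrays, 2 per genotype, and the authors' robust multi-array average (RMA) gave a log2 value per probe set. How many mice went into a pool is not given in the sources used here, nor whether the pools of a genotype came from separate animals. The p-values therefore rest on a spread between arrays that may be technical.

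The signal of *Trem2* itself was 7.64 and 7.45 on the Trem-2-/- arrays, against 9.58 and 9.74 on the WT arrays (log2), so the 4 arrays matched their labels. The Trem-2-/- arrays correlated with each other at 0.995 and the WT arrays at 0.994 (Pearson's r over all probe sets, which are not independent replicates). At an adjusted p below 0.05 in limma, Trem-2-/- AM had 86 genes (0.431%) with higher and 27 (0.135%) with lower expression than WT AM, together 0.567% of those measured. At an unadjusted p below 0.05, 926 of the 19946 genes (4.64%) were higher and 1377 lower. Several markers of AM were bright on every array. *Car4*, another marker on the AM list, had only 5.81 and 6.10 on the WT arrays, beside median probe sets of 5.86. *Itgax* (CD11c) averaged 12.72 in Trem-2-/- AM and 12.84 in WT AM, *Siglecf* 11.13 and 11.34, *Marco* 12.38 and 12.20, and *Chil3* 12.84 and 12.68 on the log2 scale.

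Adhesion receptors of this kind carry a long extracellular part, here built from EGF-like modules that bind cell-surface or matrix ligands, joined to a membrane-spanning region that can signal through G proteins. Most are cut into a pair of fragments at a conserved site beside the membrane and stay together as a non-covalent complex. F4/80 is the standard surface marker of mouse macrophages and has been linked to the induction of peripheral tolerance. FIRE, for F4/80-like receptor, is found on mouse myeloid cells, and its human counterpart is a pseudogene. CD97 is widespread on leukocytes and binds CD55, Thy1, integrins and glycosaminoglycans.

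*Adgre4* and *Adgre5* were higher in AM lacking TREM-2. *Adgre4* was 4.20-fold higher and *Adgre5* 1.50-fold higher than in WT AM. *Adgre1* was 1.19-fold higher in signal and did not pass the test. Of the 3 genes, 2 were called as higher, where 0.431% of all genes were, and none was called as lower. The 3 were chosen with results of these arrays known, so this count is not independent of them. SAM, significance analysis of microarrays, called the same 2 genes and 0.867% of all genes as higher. Their differences of 2.07, 0.59 and 0.25 on the log2 scale stood beside a median of -0.02 over all genes, with quartiles of -0.10 and 0.06.

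Of these 3 genes, only *Adgre4*, the one with the largest difference, had an entry in the promoter sequences used here. Its promoter is therefore the one shown, for a search for myeloid transcription factor motifs. The RefSeq start lies on the plus strand of chromosome 17. The 250 bases before it are chr17:55749734-55749983 and bases 21 to 50 after it are chr17:55750004-55750033, both in GRCm38.p6, a later build than the mm9 named in the submitters' notes. Capitals mark matches to motifs named in the next paragraph.
Adgre4, upstream: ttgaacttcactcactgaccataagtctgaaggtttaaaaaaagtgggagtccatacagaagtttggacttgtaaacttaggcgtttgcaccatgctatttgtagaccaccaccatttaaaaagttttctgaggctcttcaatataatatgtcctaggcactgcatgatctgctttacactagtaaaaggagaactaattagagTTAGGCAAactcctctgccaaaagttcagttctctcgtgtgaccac
Adgre4, bases 21 to 50: gaacaagataagcagtggtgcACTTCCTCc

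The motifs were picked after the sequence had been seen and were searched on both strands of the window running from 250 bases before to 50 bases after the start. The letters GAGGAAGT, a form bound by the macrophage and B cell factor PU.1, occurred once, on the minus strand from base 42 after the start, and 3.2% of the 32851 promoter windows in the RefSeq table held them. The match includes the ETS core GGAA, which occurred 2 times in the window and in 96.0% of all windows. A C/EBP form, TTGCNNAA, occurred once on the minus strand from base 46 before the start and is found in 10.8% of windows. The AP-1 letters TGANTCA, present in 7.81% of windows, did not occur. These matches describe the letters of the window and say nothing of binding.

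The gene of PU.1, *Spi1*, had log2 values of 11.36 and 11.38 on the Trem-2-/- arrays and 11.33 and 11.36 on the WT arrays. Its log2 fold change was 0.03 (95% interval -0.14 to 0.20, adjusted p = 0.91 from limma). *Cebpa*, encoding C/EBP alpha, differed by -0.01 (95% interval -0.18 to 0.16, adjusted p = 0.98 from limma).

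*Adgre4* had log2 values of 11.43 and 11.51 on the Trem-2-/- arrays, against 9.39 and 9.41 on the WT arrays. Both Trem-2-/- arrays lay far above both WT arrays, with 2.02 between the nearest arrays of the genotypes. The arrays of 1 genotype lay much closer together, 0.08 apart in Trem-2-/- AM and 0.02 apart in WT AM. The means were 11.47 ± 0.06 in Trem-2-/- AM and 9.40 ± 0.02 in WT AM (SD, n = 2 arrays each). The log2 fold change was 2.07 (standard error 0.07, 95% interval 1.89 to 2.25, adjusted p = 0.00036 from limma), or 3.71- to 4.76-fold over that interval. *Adgre4* ranked 9 among all genes ordered from the largest increase.

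**Figure D1:**
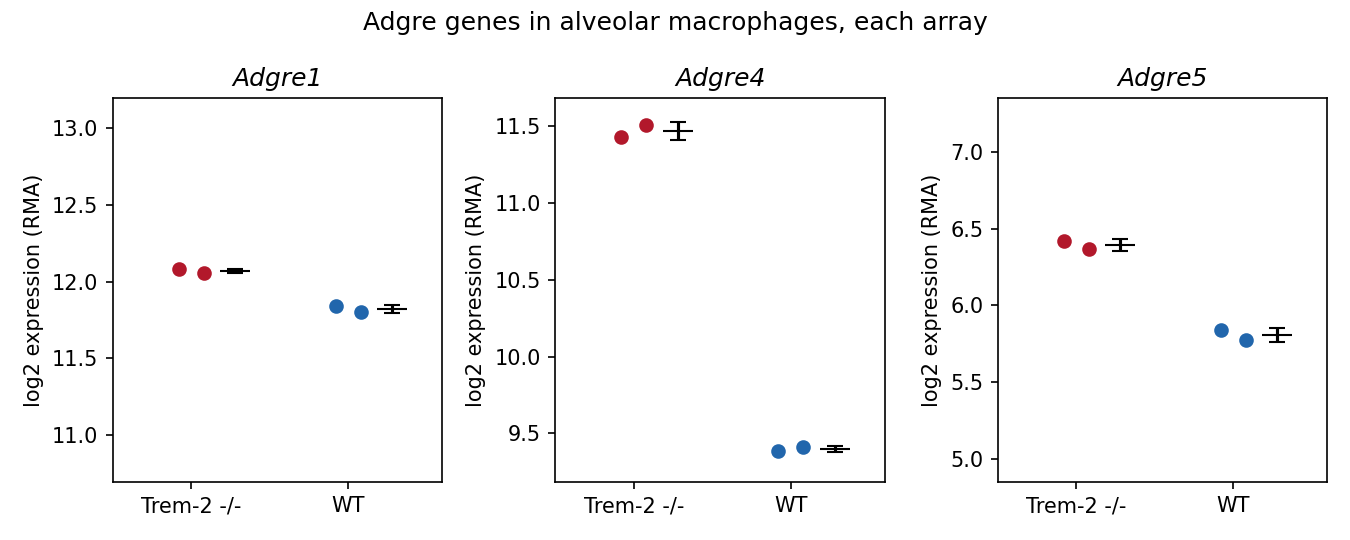
Log2 expression (RMA, y axis) of each Adgre gene on each array, with Trem-2-/- AM in red and WT AM in blue; points are arrays, and black marks give the mean and SD of 2 arrays. Each panel spans the same number of log2 units, and the genotypes stand furthest apart for *Adgre4* (11.47 in Trem-2-/- AM and 9.40 in WT AM).

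*Adgre5* had log2 values of 6.42 and 6.37 on the Trem-2-/- arrays, against 5.84 and 5.78 on the WT arrays. The WT values lay just below the median probe set of their arrays, 5.86 on each, so this signal was far weaker than those of *Adgre4* and *Adgre1*. The genotypes did not overlap, and the gap of 0.53 between their nearest arrays was larger than the gaps of 0.05 and 0.06 between the replicates of Trem-2-/- and WT AM. The means were 6.39 ± 0.04 in Trem-2-/- AM and 5.81 ± 0.04 in WT AM (SD, n = 2 arrays each). The log2 fold change was 0.59 (standard error 0.07, 95% interval 0.41 to 0.77, adjusted p = 0.039 from limma). It lay close to the smallest change that was called for any gene, 0.54. None of the 4 fits that left out 1 array kept the call (adjusted p = 0.14 to 0.24 in limma), while the log2 fold change stayed between 0.56 and 0.62. The probe set reports the whole gene, so the splice forms of CD97, which differ in their EGF-like modules, were not told apart.

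*Adgre1* had log2 values of 12.08 and 12.06 on the Trem-2-/- arrays, against 11.84 and 11.80 on the WT arrays. These arrays did not overlap either, with 0.22 between the nearest arrays of the genotypes and 0.02 and 0.04 between the replicates of Trem-2-/- and WT AM. The means were 12.07 ± 0.01 in Trem-2-/- AM and 11.82 ± 0.03 in WT AM (SD, n = 2 arrays each). The log2 fold change was 0.25 (standard error 0.07, 95% interval 0.07 to 0.42, adjusted p = 0.29 from limma). With an intensity trend and robust variance in limma the same difference passed (adjusted p = 0.0019). The 95% interval given above ran from 1.05- to 1.34-fold. It was computed for *Adgre1* alone, without correction for testing all genes. Its width reflects the spread between arrays, which may be technical. It therefore sets no limits on the difference in F4/80 transcript between the genotypes. F4/80 served as a gate in the flow cytometry of the study, whereas the arrayed cells were taken as lavage cells.

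All 3 genes were higher on both Trem-2-/- arrays than on either WT array, a pattern shared by 17.4% of all genes measured. The replicate gaps of the 3 genes, 0.02 to 0.08, lay below the median gap over all genes, 0.09 in Trem-2-/- AM and 0.09 in WT AM. The 95% interval of *Adgre4* lay above those of *Adgre5* and *Adgre1*, while the intervals of *Adgre5* and *Adgre1* overlapped between 0.41 and 0.42. Differences between the 3 changes were not tested. These are bulk samples, in which more cells carrying a transcript and more transcript per cell cannot be told apart.

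Among adhesion receptors of the other subfamilies, 25 of 27 listed genes were measured. None of these passed limma (fitted without a replicate block) in either direction, while 2, *Adgrg6* and *Adgrf5*, were higher and 0 lower at an unadjusted p below 0.05, which 4.64% of all genes met as higher. Their log2 fold changes ran from -0.17 to 0.89 with a median of 0.02, and 8 of the 25 lay below the lower quartile of all 4 arrays, where a difference may not be detectable. *Adgrg6* (GPR126), a receptor required for myelination by Schwann cells, had 5.37 and 5.99 in Trem-2-/- AM and 4.67 and 4.91 in WT AM. Its log2 fold change was 0.89 (95% interval 0.40 to 1.39, adjusted p = 0.18 from limma), with a replicate gap in Trem-2-/- AM well above those of the Adgre genes. SAM called *Adgrg6* as higher, beside 0.867% of all genes. *Adgrf5* (GPR116), which restrains surfactant in the alveolar epithelium, had 4.96 and 5.20 in Trem-2-/- AM and 4.65 and 4.55 in WT AM (log2 fold change 0.48, adjusted p = 0.16 from limma). An intensity trend with robust variance called both of these genes as higher, and 379 of all 19946 genes. The latrophilin gene *Adgrl2* had 10.37 and 10.40 in Trem-2-/- AM and 10.52 and 10.43 in WT AM (log2 fold change -0.09, adjusted p = 0.70 from limma).

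**Figure D2:**
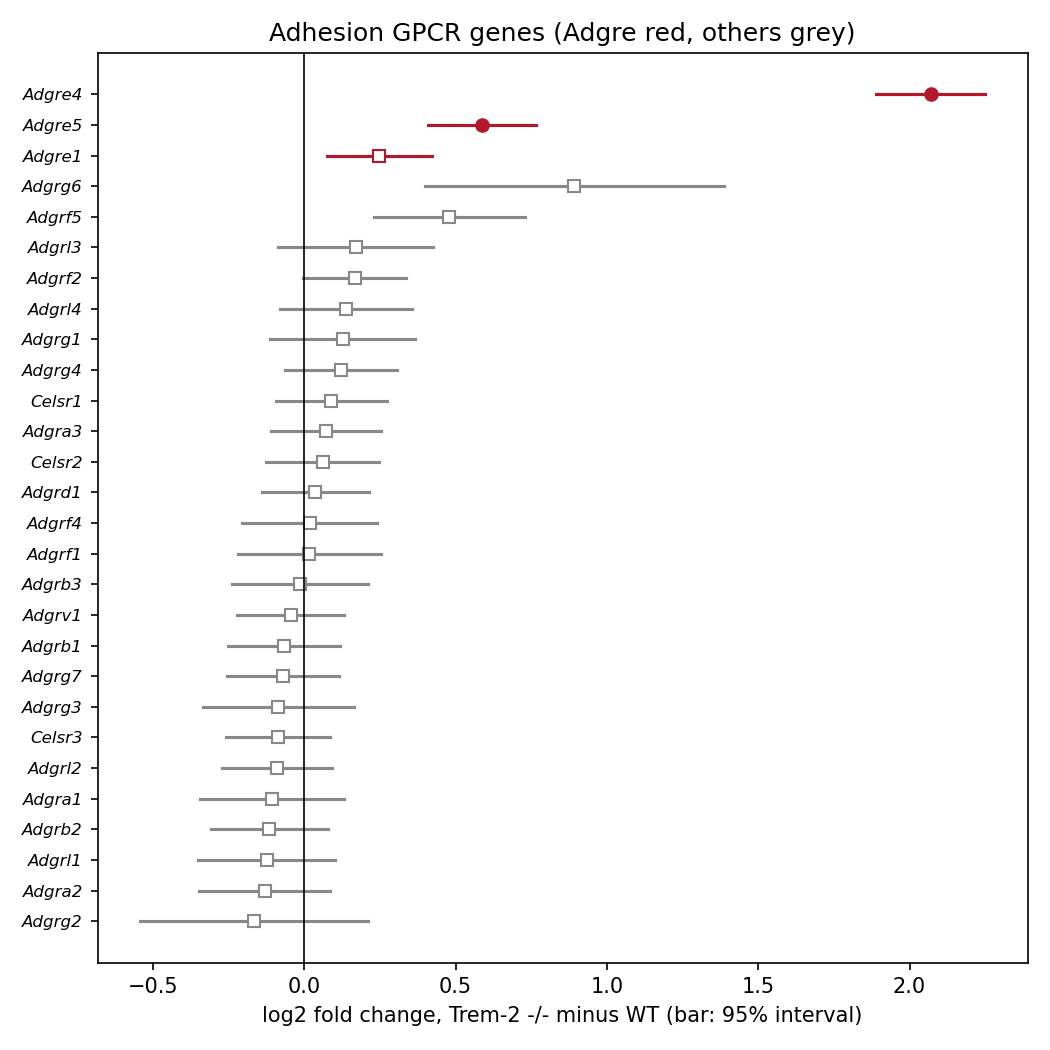
Log2 fold change (x axis), Trem-2-/- minus WT AM, of 3 Adgre genes (red) and 25 other adhesion receptor genes (grey), from 2 arrays per genotype; bars are 95% intervals from limma, filled circles passed at an adjusted p of 0.05 and open squares did not. *Adgre4* lies at 2.07 and *Adgre5* at 0.59, both filled, and *Adgre1*, open, at 0.25.

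The known partners of CD97 were listed as *Cd55* and *Cd55b* (decay-accelerating factor), *Thy1* (CD90) and the integrin chains *Itga5*, *Itgav*, *Itgb1* and *Itgb3*. All 7 were measured and none passed the test in either direction, with log2 fold changes from -0.17 to 0.08 and a median of 0.03. *Cd55* had 3.17 and 3.23 in Trem-2-/- AM and 3.22 and 3.18 in WT AM, and *Cd55b* 2.82 and 2.86 in Trem-2-/- AM and 2.81 and 2.71 in WT AM. Both probe sets were dim, below the lower quartiles of all arrays (4.39 to 4.40). In this list no gene had an unadjusted p below 0.05 or was called by SAM. *Itgb1*, the shared integrin beta chain, had 11.85 and 11.84 in Trem-2-/- AM and 11.80 and 11.83 in WT AM.

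CD97 is known to couple to the G12/13 class of G proteins and through it to the GTPase RhoA. Of 10 listed genes of this route, including the arrestins, 9 were measured and none passed the test in either direction. Their log2 fold changes ran from -0.08 for *Gna13*, the G13 alpha chain, to 0.10 for *Arhgef1*, an exchange factor for RhoA, and the median was 0.03. Neither an unadjusted p below 0.05 nor a call by SAM was found for any of the 9, and each was above the lower quartile of at least 1 array.

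Of 15 listed transcription factors of myeloid cells, 14 were measured and none passed in either direction, with a median log2 fold change of -0.01. The furthest from 0 were *Gata6*, the factor of peritoneal macrophages, and *Egr2*. *Gata6* had 5.66 and 5.81 in Trem-2-/- AM and 5.06 and 5.35 in WT AM (log2 fold change 0.53, adjusted p = 0.17 from limma). *Egr2*, a zinc finger factor of macrophage differentiation, had 9.83 and 9.78 in Trem-2-/- AM and 10.32 and 10.30 in WT AM (log2 fold change -0.51, adjusted p = 0.058 from limma). These were the 2 genes of the list with an unadjusted p below 0.05 in limma. SAM called neither, and an intensity trend with robust variance called both, in the directions given. That setting called 379 of all 19946 genes as higher and 290 as lower.

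*Adgre4* and *Adgre1* lie on chromosome 17, as does *Trem2*, and *Adgre5* lies on chromosome 8. In RefSeq gene order 29 measured genes stand between *Trem2* and *Adgre4*, and limma called none of these in either direction (median log2 fold change -0.0033). At an unadjusted p below 0.05, 3 of the 29 were higher and 1 lower, where 926 of all 19946 genes (4.64%) were higher and 1377 lower. SAM called 1 of the 29 as higher, *Treml1*, and 0.867% of all genes. A further 62 stand between *Adgre4* and *Adgre1*, of which 1 was called as higher and 1 as lower (3.23%, against 0.567% of all genes). These were *Ptprs*, a receptor tyrosine phosphatase, at 9.59 in Trem-2-/- AM and 8.30 in WT AM (log2 fold change 1.30, adjusted p = 0.0025 from limma), and *Uhrf1*, a reader of hemimethylated DNA, at 7.11 in Trem-2-/- AM and 7.84 in WT AM (log2 fold change -0.73, adjusted p = 0.023 from limma). They are named because they were called. Alleles carried along with the targeted *Trem2* locus and the loss of *Trem2* itself cannot be told apart in this design.

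**Figure D3:**
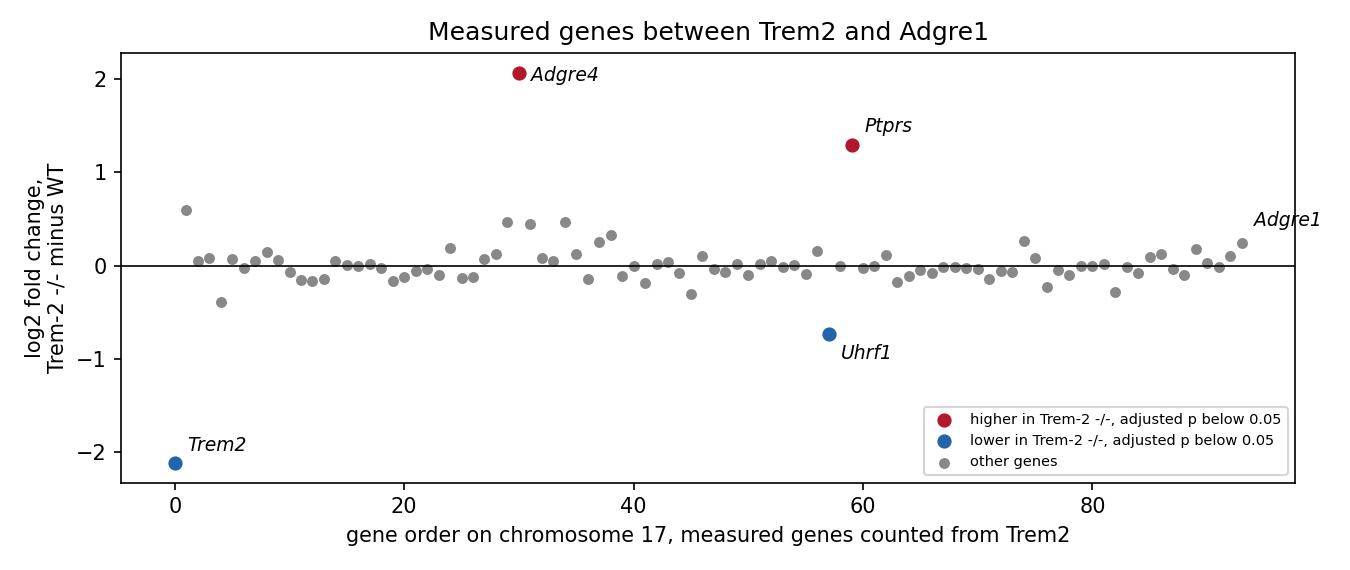
Log2 fold change (y axis), Trem-2-/- minus WT AM, of the measured genes of chromosome 17 in gene order (x axis, counted from *Trem2* at 0 to *Adgre1* at 93). Red points were called as higher and blue points as lower in Trem-2-/- AM by limma; *Adgre4*, at position 30 and 2.07, is the highest point.

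The 10 measured genes on either side of each Adgre gene contained no gene called by limma or SAM in either direction. At an unadjusted p below 0.05, 6 of the 20 neighbours of *Adgre4* were higher and 0 lower. Of all 19946 genes, 4.64% were higher and 1377 lower at that level. Of the neighbours of *Adgre1*, 1 was higher and 0 lower, and of those of *Adgre5*, 0 were higher and 1 lower. Around *Adgre4* the log2 fold changes of these 20 neighbours ran from -0.14 to 0.47, with a median of 0.06. The nearest on either side were *Pot1b*, a telomere-binding factor, and *Zfp119a*, a zinc finger gene. *Pot1b* had 8.87 and 8.86 in Trem-2-/- AM and 8.55 and 8.24 in WT AM (log2 fold change 0.47, adjusted p = 0.20 from limma). *Zfp119a* had 5.79 and 6.18 in Trem-2-/- AM and 5.55 and 5.53 in WT AM (log2 fold change 0.44, adjusted p = 0.30 from limma). Under limma's intensity trend with robust variance, 3 neighbours of *Adgre4* were called as higher (*Pot1b*, *Ebi3* and *Stap2*) and 1 neighbour of *Adgre5* as lower (*Asf1b*). That setting called 379 of all 19946 genes as higher and 290 as lower. Next to the nearest pair, *Vmn2r118* differed by 0.13 and *Zfp959* by 0.08. Around *Adgre1* the neighbours ran from -0.09 to 0.18, with *Gpr108* at -0.02, *Vav1*, a guanine nucleotide exchange factor of leukocytes, at 0.11, *Vmn2r120* at -0.05 and *Cntnap5c* at 0.10. Around *Adgre5* they ran from -0.42 to 0.21, with *Ptger1* at 0.04, *Ddx39a* at -0.08, the adhesion receptor gene *Adgrl1* at -0.12 and *Gm10644* at -0.19.

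The genes whose 4 values, centred on each gene's mean, lay nearest to those of *Adgre4* were *Pf4*, *Ptgs2*, *Vsig4*, *C1qc* and *C1qb*. They encode platelet factor 4, cyclooxygenase-2, a complement receptor of tissue macrophages and chains of C1q. Their root mean square difference from *Adgre4* over the 4 arrays was 0.09 to 0.14 log2 units. For *Adgre5* the nearest were *Acpp*, *Ccl3*, *Ptges*, *Krt19* and *Adgb*, at 0.02 to 0.03 log2 units. For *Adgre1* they were *Gpr155*, *Mab21l4*, *Gimap8*, *Slamf7* and *Tet3*, at 0.0040 to 0.01 log2 units. With 4 arrays in 2 groups, this likeness rests mainly on the size of the difference between genotypes.

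Because FIRE and F4/80 are also found on monocytes, other tissue macrophages and eosinophils, marker lists of these cells were read beside the Adgre genes. Of 16 markers of Kupffer and cavity macrophages, 6 were higher and none lower in limma, where 0.431% of all genes were called as higher. SAM also called 6 as higher, where it called 0.867% of all genes as higher. At an unadjusted p below 0.05, which 4.64% of all genes met as higher, 13 were higher and 0 lower. Their mean log2 value was 6.79 on both Trem-2-/- arrays and 5.75 and 5.72 on the WT arrays. The 4 largest increases were in *Saa3* (4.67), *Cxcl13* (2.96), *Prg4* (2.86) and *Vsig4* (2.24), given as log2 fold changes. *Timd4* (1.26) and *F5* (0.58) were also called. With a replicate block *F5* did not pass (adjusted p = 0.056 from limma). *Clec4f* and *Cd5l*, which define Kupffer cells, differed by 0.13 and 0.25 and did not pass the test. *Folr2* (-0.07) and *Lyve1* (-0.09) were lower in signal and did not pass either. No marker of this list lay below the lower quartile on all 4 arrays. *Prg4* (4.13 and 3.93) and *Vsig4* (4.28 and 4.08) lay below it on both WT arrays, where the lower quartiles were 4.40 and 4.39. Their differences were thus measured against a dim WT signal. The list holds genes already known from these arrays to be higher, so its count is not independent of them. Its part in the *Adgre4* difference was not tested.

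Of 7 measured markers of Ly6C-high monocytes, 2 were higher and none lower (0.431% of all genes were higher), namely *Ccr2* (log2 fold change 0.81) and *F13a1* (0.67), and 1 of the 7 lay below the lower quartile throughout. Their mean log2 value was 7.93 and 8.02 on the Trem-2-/- arrays and 7.54 and 7.59 on the WT arrays. Of 11 markers of Ly6C-low monocytes, on which FIRE is prominent, 1 was higher, *Cx3cr1* (0.67), and none lower, beside the same 0.431% of all genes. At an unadjusted p below 0.05, 5 of the Ly6C-high markers were higher and 0 lower, and 2 of the Ly6C-low markers were higher and 1 lower, *Cd36* (-0.25). Of all 19946 genes, 926 (4.64%) were higher and 1377 lower at that level. The mean of the Ly6C-low markers was 8.84 and 8.82 on the Trem-2-/- arrays and 8.75 and 8.71 on the WT arrays, and *Ace* (-0.04), *Spn* (0.07) and *Treml4* (0.02) did not pass the test. The calls of *Ccr2*, *F13a1* and *Cx3cr1* were lost with any 1 array left out. The part of monocytes in the Adgre differences was not tested.

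Of 10 eosinophil markers 1 was higher, *Alox15* (log2 fold change 1.52), and none lower (0.431% of all genes were higher), with means of 5.93 and 5.86 on the Trem-2-/- arrays and 5.81 and 5.79 on the WT arrays. At an unadjusted p below 0.05, 1 was higher, *Alox15*, and 2 were lower, *Gata1* (-0.24) and *Siglecf* (-0.21), which is also an AM marker. Of all 19946 genes, 926 (4.64%) were higher and 1377 lower at that level. The granule protein genes *Epx* and *Prg2*, which define eosinophils, differed by -0.0087 and -0.01, and *Ccr3* and *Il5ra* were below the lower quartile throughout. None of 14 dendritic cell, 12 neutrophil, 7 B cell and 10 T and NK cell markers passed limma. At an unadjusted p below 0.05, 2, 3, 0 and 1 of these were higher and 1, 0, 0 and 0 lower, in the order named. SAM called 1 of these, the neutrophil marker *Csf3r*, as higher, beside 0.867% of all genes. Of 15 lung epithelial markers 2 were higher in limma, *Cldn18* (1.23) and *Scgb1a1* (0.91), and none lower, again beside 0.431% of all genes higher, with list means of 6.41 and 6.37 on the Trem-2-/- arrays and 6.09 and 6.10 on the WT arrays. The call of *Scgb1a1* was lost with any 1 array left out and that of *Cldn18* in 1 of the 4 such fits. SAM called 4 of the 15 as higher, with *Krt8* (0.83) and *Krt18* (0.95) added, and 0 as lower, beside 0.867% of all genes higher. At an unadjusted p below 0.05, 7 were higher and 1 lower, *Cdh1* (-0.45), which encodes E-cadherin. The surfactant protein genes *Sftpb* (-0.10) and *Sftpa1* (-0.08), *Scgb3a1* (-0.19), *Epcam* (-0.09) and *Nkx2-1* (0.0019) did not pass. Other members that did not pass were higher in signal, namely *Ager* (0.48), *Sftpc* (0.44), *Lamp3* (0.19) and *Sftpd* (0.15). The part of epithelial RNA in the Adgre differences was not tested.

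Of 11 general macrophage markers 1 was higher, *Cd14* (0.56), and 1 lower, *Itgam* (CD11b, -0.54), where 0.431% of all genes were higher and 0.135% lower. Both calls were lost with any 1 array left out. *Csf1r*, the receptor for macrophage colony-stimulating factor, differed by 0.13, *Mertk* by 0.11, *Cd68* by -0.04 and *Lyz2* by 0.11, and none of these passed. *Fcgr1* differed by 0.54 and did not pass either. SAM called *Cd14* as higher, beside 0.867% of all genes, and did not call *Itgam*. The study reported no difference in expression of the complement receptor CR3, which includes *Itgam*. At an unadjusted p below 0.05, 2 of the 11 were higher, *Cd14* and *Fcgr1*, and 1 lower, *Itgam*. Of all 19946 genes, 926 (4.64%) were higher and 1377 lower at that level. Of 17 measured AM markers 2 were higher, *Car4* (0.90) and *Fabp1* (0.74), and none lower, beside 0.431% of all genes higher, and the median of the list was -0.0045. SAM called the same 2, beside 0.867% of all genes higher. At an unadjusted p below 0.05, 4 were higher and 2 lower, *Krt79* (-0.35) and *Siglecf* (-0.21). Without 1 array the call of *Car4* was kept in 1 and that of *Fabp1* in 0 of the 4 fits.

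**Figure D4:**
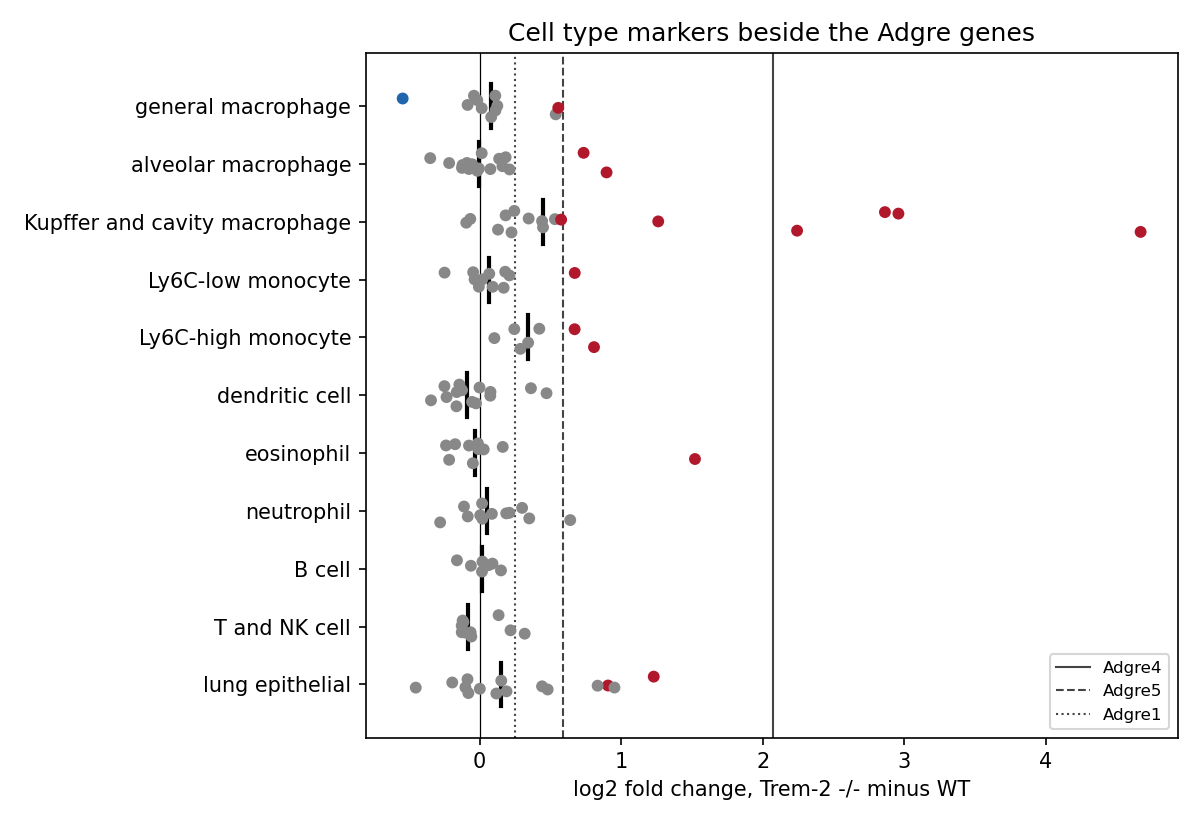
Log2 fold change (x axis), Trem-2-/- minus WT AM, of each measured member of 11 marker lists; red and blue points passed limma as higher or lower in Trem-2-/- AM, grey points did not pass, and black bars are list medians (0.45 for Kupffer and cavity macrophages, -0.0045 for AM). Vertical lines mark *Adgre4* (2.07), *Adgre5* (0.59) and *Adgre1* (0.25).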

How the data were processed

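AM RNA was measured on 4 Affymetrix mouse gene arrays, 2 Trem-2-/- and 2 WT. The authors normalised the arrays by RMA and deposited log2 values; the submitters' notes name RMA, without a version, and mm9. Scanner intensities were not used here, so background correction could not be varied. Probe sets were named through the platform annotation (21797 with 1 symbol, 21698 matched to RefSeq, GRCm38.p6), and the brightest probe set was kept for each of 999 genes with several. No filter on expression was applied. The difference between Trem-2-/- and WT AM was fitted for every gene in R 4.3.3 with limma 3.58.1 (lmFit, then eBayes), and two-sided p-values were adjusted by Benjamini-Hochberg across the 19946 genes, with calls at an adjusted p below 0.05. An exact permutation test of 2 arrays against 2 cannot give a two-sided p below 0.333. The code was tested on simulated data.

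The members and gene lists were chosen with earlier results of these data known. Genes named are the 3 Adgre genes, *Trem2*, called or role-bearing members of the lists, the 2 nearest measured genes on each side of each Adgre gene, and the 5 with the most similar values. Other marker genes named were picked after their values were seen. Alternatives were SAM (significance analysis of microarrays, the test in the study's methods, at a false-discovery rate of 5%), an intensity trend with robust variance, a replicate block, repeated quantile normalisation, median centring, a mean log2 filter of 6, the mean of probe sets, all rows as probe sets, and leaving out each array. The number of arrays limits the precision.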

Additional observations from a re-analysis of the deposited data

How the results depend on the processing

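The log2 fold changes of *Adgre4*, *Adgre5* and *Adgre1* kept their direction in all 12 alternatives to the test reported, at 2.03 to 2.11, 0.56 to 0.62 and 0.21 to 0.27. *Adgre4* passed in all 12 (adjusted p up to 0.026 from limma where a p was given). *Adgre5* did not pass with all rows tested as probe sets, where its log2 fold change was 0.59 and more features share the adjustment (adjusted p = 0.26 from limma), nor with 1 array left out (0.56 to 0.62 in the 4 fits). *Adgre1* passed only with an intensity trend and robust variance (0.25, adjusted p = 0.0019 from limma); the cause was not tested.

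Over all genes, 86 were higher and 27 lower. The counts were 379 and 290 with an intensity trend and robust variance, 207 and 150 with a mean log2 value of at least 6, where fewer genes were tested, 21 and 2 with all rows as probe sets, and 22 to 43 and 4 to 7 with 1 array left out. SAM gave 173 higher and 19 lower genes. Replicate numbers in the labels do not name a shared animal or day, and the deviations of same-numbered arrays correlated at -0.05 across genes. With the replicate block 98 genes were higher and 31 lower, and *Adgre4* (2.07, adjusted p = 0.00018), *Adgre5* (0.59, adjusted p = 0.043) and *Adgre1* (0.25, adjusted p = 0.37) kept their side of the threshold in limma. Of the other genes named, *Treml1*, *Ptprs* and *Uhrf1* were not followed under the block. Among the rest, the block added the calls of *Adgrg6* (adjusted p = 0.024 from limma), *Krt8* (0.024), *Krt18* (0.013) and *Csf3r* (0.03) as higher. The calls of *Adgb* (0.053), *F5* (0.056), *Cd14* (0.057), *Ptges* (0.059) and *Itgam* (0.063) were lost.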
